A study of Mus musculus with 141 samples.

Results

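Laminins and integrins are the 2 gene families described here, as all genes of the deposited tables whose symbols begin with Lama, Lamb or Lamc and a digit, or with Itga or Itgb. Genes named for binding an integrin tail (*Itgb1bp*, *Itgb3bp*) and *Itgbl1* were left out by the rule, which used names only and no measured value. It found 38 of 24423 genes, of which 11 were laminin chains (5 alpha, 3 beta and 3 gamma) and 27 were integrin subunits (18 alpha and 9 beta). RNA was sequenced from the liver, lung and kidney of 47 Collaborative Cross strains, inbred mouse lines whose genomes are mosaics of several founders. A single male of 8 to 12 weeks stood for each strain and gave 1 library per tissue. Every mouse, with no untreated group beside it, was kept in a chamber with clean air for 6 hours a day on weekdays over 2 weeks. With 1 mouse per strain, strain, mouse and library cannot be told apart, and the sequencing batches of the study are not in the labels used here.

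Laminins are heterotrimers of an alpha, a beta and a gamma chain that are secreted and assemble into the basement membrane, the sheet on which epithelia, endothelia and muscle cells rest. Integrins are alpha-beta heterodimers in the plasma membrane that bind laminins, collagens, fibronectin and other ligands outside the cell and link them to the actin cytoskeleton inside it. The chains present decide which trimers and dimers a tissue can build. In lung and kidney, basement membranes are shared by epithelium and capillary endothelium, whereas the liver sinusoid is known for lacking a continuous one.

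Total counts per library ran from 1738046 to 42158454, with medians of 10423382 in liver, 9338124 in lung and 8245850 in kidney. Levels are given as CPM, a gene's reads as a fixed-scale proportion of the library's reads, after TMM scaling, which corrects the library totals for a few abundant genes, as the lowest, median and highest of the 47 strains. The tissue labels matched their markers. Summed CPM of 6 liver genes, *Alb* among them, was 63300 to 185000 in liver and at most 3790 elsewhere. For 6 surfactant and airway genes the sum was 7110 to 16400 in lung and at most 209 elsewhere, and for 6 tubule genes it was 8600 to 31000 in kidney and at most 746 elsewhere. Some libraries carried more RNA of other cell types. The liver of CC016 and the kidney of CC020 were highest for 7 leukocyte markers (314 against a median of 33.4 CPM, and 99.9 against 14.2 CPM). The liver of CC041 had 105 CPM of 5 squamous and basal keratinocyte markers, for which the median liver had 0 and lungs reached 165, and the lungs had 54.0 to 496 CPM of 6 cardiac muscle genes. In such whole tissue, fewer cells of a type and less RNA per cell cannot be told apart.

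A limit of the counting touched 13 members. The tables list 1 transcript for 25 members and more than 1 for the others, namely *Lamb3* and 12 integrins (*Itga3*, *Itga5*, *Itga6*, *Itga7*, *Itga8*, *Itga9*, *Itgae*, *Itgal*, *Itgam*, *Itgb4*, *Itgb5* and *Itgb6*). Only uniquely aligned reads were counted. Over all genes, 55.5% of the 18311 with 1 listed transcript passed 1 CPM in 30% or more of all libraries, and 32.2% of the 6112 with more than 1 did. Among the members it was 24 of 25 and 6 of 13. Whether reads that fit several transcripts of a gene were lost was not tested, so levels of these 13 genes are given as the files have them and are not compared with other genes. *Itgal*, a leukocyte integrin, was listed at 0 in every library. *Itgam*, the myeloid integrin that pairs with *Itgb2*, reached at most 16 reads.

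The 30 members that passed this filter were compared between tissues by limma-voom, fitted to all 12127 genes passing it with the strain as a block. A member was called at q of at most 0.1, adjusted over all genes, with a log2 fold change of 1 or more in size. The 8 members that did not pass were *Itga3*, *Itga5*, *Itga7*, *Itgad*, *Itgal*, *Itgam*, *Itgb4* and *Lamb3*. Of these *Itga3* had a median of 1.35 CPM in lung, with a lowest value of 0.444 and a highest of 3.20, and medians of 0 in liver and 0.268 in kidney. The highest tissue median was 0.904 CPM for *Itgad*, 0.820 for *Lamb3*, 0.550 for *Itga5*, 0.515 for *Itga7*, 0.483 for *Itgb4* and 0.197 for *Itgam*, each of them in lung. Because a gene with reads in 1 tissue alone can pass the filter, the counts below describe the members and do not support one another.

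Most members were higher in lung than in liver. Of the 30, 24 were called higher in lung than in liver and 1, *Lama1*, higher in liver, while 31.0% and 23.9% of all genes were called in these directions and 55.0% in either. On log2(TPM + 1) the call of *Lama1* was lost, leaving 26 members higher in lung and 0 in liver. Against kidney, 16 were called lower in liver and 3 higher (*Itga4*, *Itgb2* and *Itgb3*), beside 20.8% and 15.6% of all genes and 36.4% in either direction. That split depended on the scaling, with 20 and 1 for scaling by total counts and 14 and 0 for log2(TPM + 1). Between lung and kidney, 18 were called higher in lung and 5 in kidney (*Itgav*, *Itgb2l*, *Itgb6*, *Itgb8* and *Lama1*), beside 25.5% and 20.6% of all genes and 46.1% in either. The ranges of the 47 strains did not overlap for 13 members between liver and lung, 11 between liver and kidney and 14 between lung and kidney. For all genes the shares without overlap were 26.1%, 13.2% and 22.6%. The median log2 fold change of the members stood at -2.58 for liver minus lung, -1.14 for liver minus kidney and 1.15 for lung minus kidney, beside -0.06, 0 and 0.04 over all genes.

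**Figure D1:**
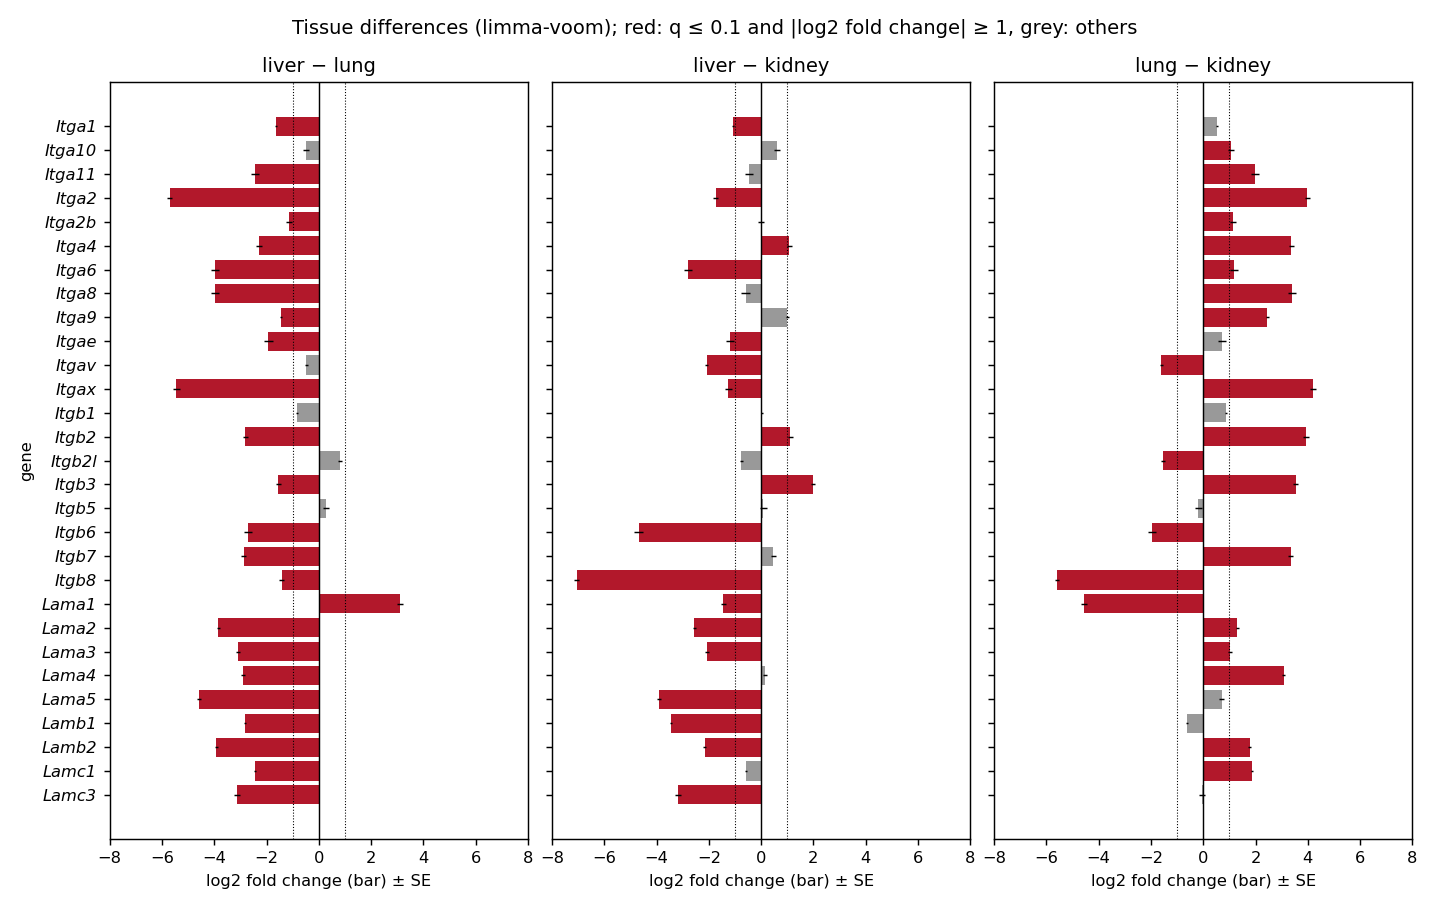
Log2 fold change of 29 of the members tested in each pair of tissues (horizontal axis), with the standard error as a thin line, red where the gene was called and grey where it was not. In the left panel 1 red bar, *Lama1*, points to liver, and in the right panel the longest bar to the left is *Itgb8*, at -5.61.

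Laminin alpha chains carry the domain that integrins and dystroglycan bind. *Lama1*, a chain of early embryonic and of tubular basement membranes, had 29.9, 47.2 and 87.3 CPM (lowest, median, highest) in kidney. In liver it had 9.57, 16.9 and 30.6 CPM, and in lung 0.242, 1.56 and 7.25 CPM. Every liver and every kidney was above every lung. The log2 fold change was 3.11 ± 0.11 (SE) for liver minus lung (q = 9.1e-49) and -4.56 ± 0.11 for lung minus kidney (q = 3.8e-63), and liver was lower than kidney in 47 of 47 strains (-1.45 ± 0.10, q = 2.4e-25). On log2(TPM + 1) the liver minus lung difference was 0.992, just under the fold threshold.

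*Lama5*, the widespread chain of adult epithelial and vascular basement membranes, had 106, 189 and 357 CPM in lung, 64.4, 125 and 192 CPM in kidney and 2.51, 8.38 and 24.8 CPM in liver. No liver reached the lowest lung or kidney, and liver minus lung was -4.59 ± 0.08 (q = 2.4e-75) and liver minus kidney -3.89 ± 0.08 (q = 1.6e-68). Lung and kidney overlapped, and the difference of 0.70 ± 0.08, positive in 42 of 47 strains, was below the fold threshold. *Lama4*, a chain of endothelial basement membranes, stood apart from this order. It had 103, 138 and 176 CPM in lung but 1.81, 18.8 and 29.9 CPM in liver and 10.7, 16.0 and 32.1 CPM in kidney. Liver and kidney lay together (0.16 ± 0.07, not called), and lung was above every sample of both (lung minus kidney 3.07 ± 0.07, q = 1.1e-66). Summed CPM of 7 endothelial markers was also higher in lung, at 650 to 1260 against 125 to 231 in liver and 107 to 177 in kidney, and its part in the *Lama4* difference was not tested.

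*Lama2*, known from the basement membrane of muscle and its loss in congenital muscular dystrophy, had 95, 132 and 200 CPM in lung, 35.7, 53.5 and 94.3 CPM in kidney and 3.39, 9.08 and 28 CPM in liver. The 3 ranges did not overlap, although smooth muscle markers (6 genes) moved with them, with medians of 354, 53.8 and 22.3 CPM, which was not tested further. *Lama3*, the chain that anchors epithelia through hemidesmosomes, had 138, 212 and 336 CPM in lung, 64.4, 105 and 189 CPM in kidney and 6.96, 26.5 and 49.2 CPM in liver. Its lung minus kidney difference was 1.01 ± 0.07, at the threshold and lost in 6 of the alternative settings (0.941 to 0.994), and liver was below both without overlap (-3.09 ± 0.07 and -2.08 ± 0.08).

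**Figure D2:**
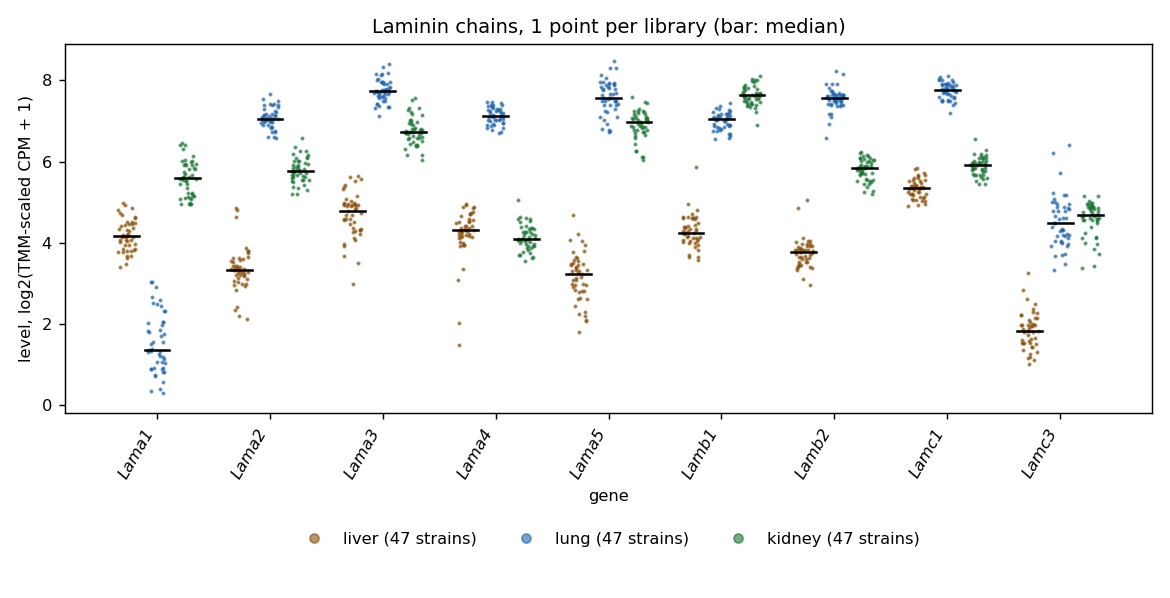
Levels of 9 of the laminin chains tested, as log2(TMM-scaled CPM + 1) on the vertical axis, with 1 point per library coloured by tissue and a bar at the median of 47 strains. *Lama1* is lowest in lung, while *Lama5* falls from lung through kidney to liver.

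Beta chains were ordered differently from one another. *Lamb1*, the beta chain of most trimers, had 119, 198 and 272 CPM in kidney, 93.2, 131 and 173 CPM in lung and 10.9, 18.0 and 57.5 CPM in liver. Kidney exceeded lung in 47 of 47 strains, by 0.63 ± 0.04 on the log2 scale, which did not reach the fold threshold. *Lamb2*, the chain of the glomerular filter and the neuromuscular junction, had 94.9, 188 and 296 CPM in lung, 35.5, 56.0 and 74.4 CPM in kidney and 6.83, 12.6 and 32.1 CPM in liver. The 3 ranges of *Lamb2* did not overlap, and lung minus kidney was 1.78 ± 0.06 (q = 5.7e-53).

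Gamma chains differed in size of effect. *Lamc1*, the common gamma chain, had 146, 217 and 273 CPM in lung, 42.8, 59.2 and 93.1 CPM in kidney and 29.0, 39.7 and 56.5 CPM in liver. It was the laminin with the smallest difference between liver and kidney after *Lama4* (-0.57 ± 0.04, not called). *Lamc3* had 9.50, 24.6 and 34.8 CPM in kidney, 9.06, 21.4 and 83.8 CPM in lung and 1.03, 2.58 and 8.59 CPM in liver. For *Lamc3*, kidney and lung overlapped widely (-0.06 ± 0.11, q = 0.61) and liver was below both.

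Within a library, the share of a chain in the summed TPM (read number divided by transcript length and scaled to a fixed total) of its class allows chains to be compared per length, free of the scaling between libraries. Among alpha chains the 5 shares in liver had medians of 33.9% for *Lama4*, 27.2% for *Lama3*, 18.5% for *Lama1*, 10.1% for *Lama2* and 8.48% for *Lama5*. In lung they were 30.4% for *Lama4*, 27.4% for *Lama3*, 22.2% for *Lama5*, 18.3% for *Lama2* and 0.217% for *Lama1*. Kidney had 30.6% *Lama5*, 29.2% *Lama3*, 15.4% *Lama2*, 14.4% *Lama1* and 7.88% *Lama4*. The median share of *Lama3* was thus near the same in the 3 tissues. The *Lama1* share of liver exceeded that of lung in 47 of 47 strains, and the *Lama4* share of lung exceeded that of kidney in 47 of 47. Counted as CPM, without division by length, the *Lama4* share fell to 23.6% in liver and 19.8% in lung.

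*Lamb1* made up 77.8% of the beta chain TPM in kidney (70.6 to 85.2%), 59.5% in liver (43.2 to 72.2%) and 40.1% in lung (28.4 to 53.6%), the rest being *Lamb2*, since *Lamb3* was left out here as a gene with more than 1 listed transcript. Kidney and lung did not overlap. *Lamc1* made up 89.1% of the gamma chain TPM in liver (77.8 to 93.7%), 54.7% in lung and 50.5% in kidney. *Lamc3* made up 27% in kidney (11.8 to 39.1%) and 7.04% in lung.

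**Figure D3:**
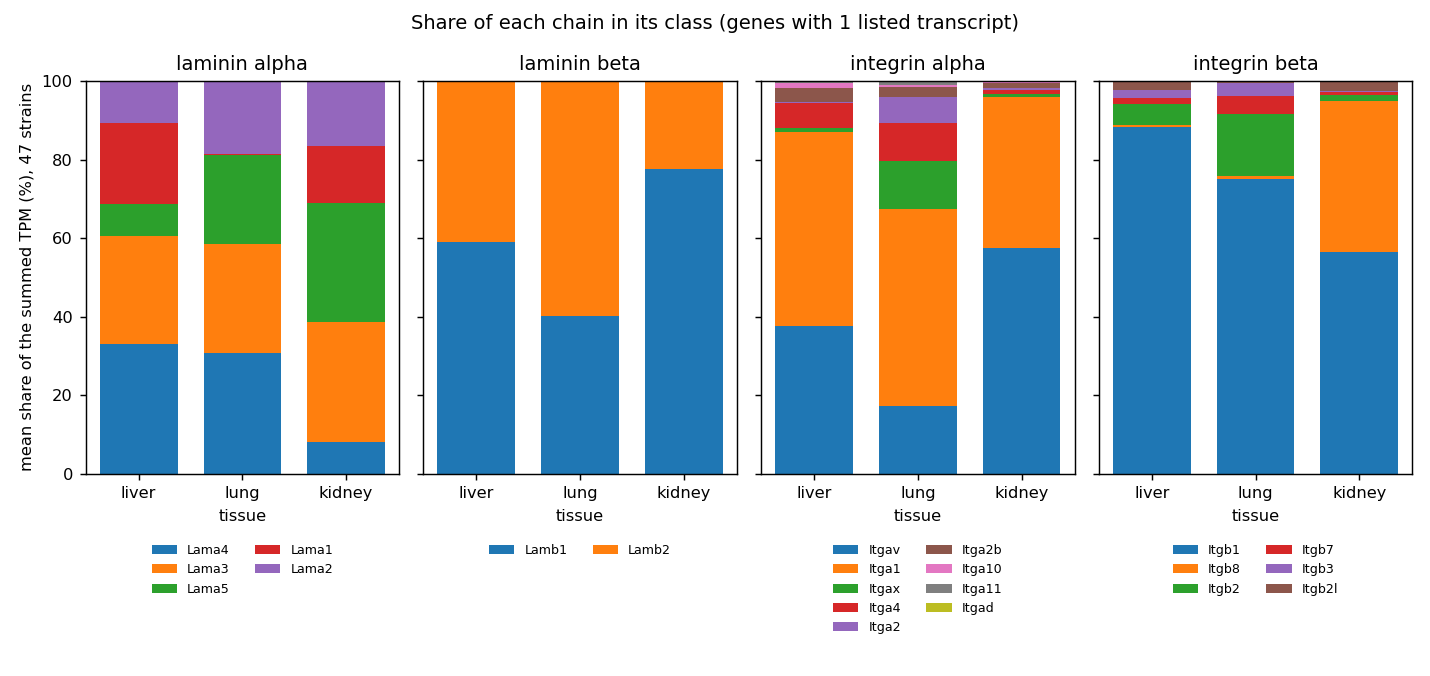
Mean share (%) of each chain in the summed TPM of its class in liver, lung and kidney, over 47 strains for genes with 1 listed transcript in the alpha and beta laminin classes and both integrin classes. The *Itgb8* block appears in kidney and is a thin line in liver and lung, and *Lama1* is a thin line in the lung bar.

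The beta subunits were headed in each tissue by *Itgb1*, the one shared by most collagen, laminin and fibronectin receptors. It had 349, 476 and 640 CPM in lung, 209, 262 and 355 CPM in liver and 174, 254 and 358 CPM in kidney. Lung was above liver and above kidney in 47 of 47 strains, by 0.84 ± 0.04 and 0.88 ± 0.04, under the fold threshold, and liver and kidney differed by 0.04 ± 0.04 (q = 0.29). Of the beta subunit TPM it took 89.2% in the median liver, 75.8% in lung and 56.8% in kidney, lower in kidney than in either other tissue in 47 of 47 strains. The remainder in kidney was mostly *Itgb8*, at 38.3% (24.6 to 52.6%), and in lung *Itgb2*, at 16.2% (9.61 to 25.8%).

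Collagen receptors of the *Itgb1* group were led by *Itga1*, with 154, 256 and 386 CPM in lung, 125, 175 and 245 CPM in kidney and 49.7, 81.4 and 112 CPM in liver. Liver was below every lung and every kidney, and lung exceeded kidney in 45 of 47 strains (0.54 ± 0.04). *Itga2*, the collagen receptor of epithelia and platelets, had 10.7, 21.6 and 44.1 CPM in lung. In kidney it had 0.315, 1.38 and 3.16 CPM, and in liver 0, 0.316 and 2.36 CPM, with 31 of 47 livers at 3 reads or fewer. Every lung was above every other sample, with 3.98 ± 0.09 for lung minus kidney (q = 8.7e-64).

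*Itga10* and *Itga11*, collagen receptors of cartilage and of fibroblasts, were low. *Itga10* had 0.863, 2.52 and 5.31 CPM in lung, 0, 1.61 and 7.59 CPM in liver and 0.268, 1.03 and 3.14 CPM in kidney, and only lung minus kidney was called (1.07 ± 0.12, q = 7.8e-14). That call was lost on log2(TPM + 1), at 0.91. Exons of *Itga10* overlap another gene in GENCODE, so reads may be shared. *Itga11* had 1.30, 2.75 and 8.35 CPM in lung, with medians of 0.434 in liver and 0.702 in kidney.

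Laminin receptors could be followed only in part. *Itga6*, the epithelial laminin receptor, had 0.904, 2.31 and 4.77 CPM in lung and 0.178, 1.02 and 3.17 CPM in kidney, and 31 of 47 livers were at 0. Its partner in hemidesmosomes, *Itgb4*, and the laminin receptors *Itga3* and *Itga7* did not pass the filter. These 4 genes list more than 1 transcript. *Itga9*, which binds tenascin and other matrix proteins, had 17.5, 49.6 and 64.6 CPM in lung, 9.31, 17.5 and 31.2 CPM in liver and 3.20, 8.78 and 16.8 CPM in kidney. Lung and kidney did not overlap by a narrow margin (2.45 ± 0.05, q = 8.6e-67), and liver was above kidney in 45 of 47 strains by 0.996 ± 0.05, just short of a call. *Itga8*, the nephronectin receptor of mesenchyme, had 0.397, 2.86 and 4.96 CPM in lung, 29 of 47 livers at 0, and a kidney median of 0.213 CPM.

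Receptors of the alpha V group bind the RGD sequence of matrix proteins, and *Itgav*, *Itgb8* and *Itgb6* were highest in kidney, while *Itgb3* was lowest there. *Itgav*, the shared alpha subunit, had 224, 297 and 587 CPM in kidney, 67.1, 103 and 133 CPM in lung and 43.8, 76.6 and 102 CPM in liver. No lung or liver reached the lowest kidney, with -1.60 ± 0.05 for lung minus kidney (q = 2.0e-50) and -2.08 ± 0.05 for liver minus kidney (q = 3.7e-60). *Itgb8*, whose dimer with *Itgav* activates latent TGF-beta, had 84.2, 134 and 207 CPM in kidney. In lung it had 1.01, 2.59 and 8.47 CPM and in liver 0, 0.839 and 10.1 CPM. The lowest kidney thus lay far above the highest lung and liver, and the log2 fold changes of -5.61 ± 0.08 (q = 9.8e-85) and -7.05 ± 0.09 (q = 3.4e-87) were the most negative of the members against kidney. The liver of CC035 held the highest liver value, and the same library had the highest level of the 6 kidney tubule genes among livers, at 746 CPM. The next liver had 2.95 CPM.

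*Itgb6*, the epithelial partner of *Itgav*, had 0.230, 3 and 5.06 CPM in kidney and 0.217, 0.605 and 1.86 CPM in lung, with 44 of 47 livers at 0 and at most 1 read in the rest. Kidney was higher than lung in 44 of 47 strains (lung minus kidney -1.97 ± 0.16, q = 3.4e-21), a call lost on log2(TPM + 1), at -0.71. Liver and lung changed order for *Itgb6* on log2(TPM + 1) less the median difference of all genes (0.51 for liver minus lung). *Itgb5*, the vitronectin receptor subunit, had 1.18, 3.55 and 9.97 CPM in liver, 0.604, 3.09 and 16.4 CPM in lung and 1.41, 3.48 and 14.1 CPM in kidney and was called in no pair. Its liver minus lung difference of 0.27 ± 0.13 turned to -1.11 with total counts and -1.21 on log2(TPM + 0.1), both of them called. *Itgb3*, which pairs with *Itgav* and with the platelet subunit *Itga2b*, had 15.5, 28 and 46.4 CPM in lung, 3.99, 8.38 and 30.4 CPM in liver and 0.711, 2.11 and 6.87 CPM in kidney. Liver was above kidney in 47 of 47 strains (1.98 ± 0.09, q = 2.0e-37), a call lost on log2(TPM + 1), at 0.60. *Itga2b* had 0.795, 7.16 and 17.9 CPM in lung, 0, 3.39 and 6.07 CPM in liver and 0.310, 3.14 and 5.10 CPM in kidney, with liver and kidney 0.01 apart (q = 0.95). The 7 platelet markers summed to 14.1 CPM in the median lung, 3.10 in liver and 2.43 in kidney, with *Gp1bb* at 0 in every liver.

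**Figure D4:**
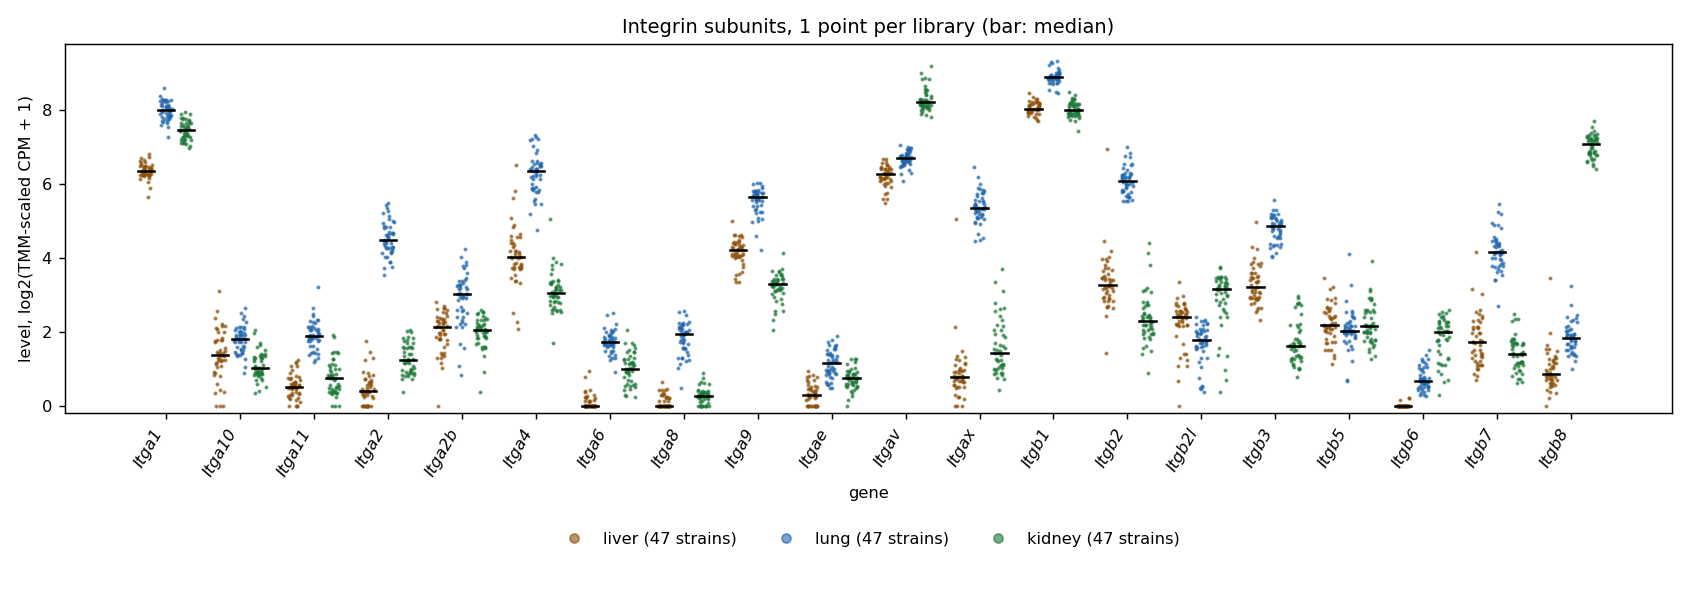
Levels of the 20 integrin subunits tested, as log2(TMM-scaled CPM + 1) on the vertical axis, with 1 point per library coloured by tissue and a bar at the median of 47 strains. *Itgb8* and *Itgav* are highest in kidney, and *Itgax*, *Itgb2*, *Itga4* and *Itgb7* are highest in lung, the highest liver point of each being that of CC016.

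Leukocyte integrins were highest in lung. *Itgb2*, the beta subunit of leukocyte adhesion, had 45.3, 66.9 and 128 CPM in lung, 1.70, 8.65 and 122 CPM in liver and 0.858, 3.92 and 20.2 CPM in kidney. *Itgax*, the subunit of dendritic cells and alveolar macrophages, had 20.9, 39.8 and 86.7 CPM in lung, 0, 0.716 and 32.5 CPM in liver and 0.357, 1.73 and 12.1 CPM in kidney. *Itga4*, a lymphocyte subunit that binds VCAM, had 26.2, 80.3 and 159 CPM in lung, 3.21, 15.3 and 90.4 CPM in liver and 2.26, 7.37 and 32.3 CPM in kidney. Its partner *Itgb7*, the gut-homing subunit, had 5.56, 17.1 and 43.2 CPM in lung, 0.622, 2.32 and 17.0 CPM in liver and 0.553, 1.65 and 4.65 CPM in kidney.

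Lung minus kidney was 4.20 ± 0.12 for *Itgax* (q = 6.2e-56), 3.93 ± 0.10 for *Itgb2* (q = 7.3e-61), 3.36 ± 0.10 for *Itga4* (q = 1.7e-53) and 3.34 ± 0.09 for *Itgb7* (q = 5.6e-58), positive in 47 of 47 strains each. Of the liver and kidney pair, *Itga4* and *Itgb2* were called higher in liver (1.08 ± 0.10 and 1.12 ± 0.10) and *Itgax* higher in kidney (-1.25 ± 0.13). With libraries scaled by total counts the first 2 differences were 0.10 and 0.20 and were not called. The *Itgax* call was lost on log2(TPM + 1), at -0.93, and at -0.21 after the median difference of all genes was taken off. The highest liver of all 4 genes was that of CC016, the library with the highest leukocyte marker level. Its *Itgax* was 32.5 CPM where the next liver had 3.42, and its *Itgb2* was 122 CPM where the next had 21.2. The 7 leukocyte markers summed to 73.1 to 266 CPM in lung, 17.7 to 314 in liver and 7.22 to 99.9 in kidney, all 7 with a median above 0 in lung and kidney and *Coro1a* at a median of 0 in liver. Their part in the tissue differences was not tested. *Itgae*, the subunit of lymphocytes within epithelia, had 0.400, 1.22 and 2.74 CPM in lung, with medians of 0.704 in kidney and 0.235 in liver, and both its calls against liver changed sign on log2(TPM + 1) less the median difference of all genes (0.11 against lung, 0.25 against kidney).

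*Itgb2l*, a close relative of *Itgb2* without an assigned partner, went the other way. It had 0.304, 7.94 and 12.5 CPM in kidney, 0, 4.35 and 9.30 CPM in liver and 0.301, 2.46 and 4.34 CPM in lung. Kidney exceeded lung in 45 of 47 strains (lung minus kidney -1.54 ± 0.07, q = 5.0e-38), a call lost on log2(TPM + 1), at -0.83, and on log2(TPM + 0.1), at -0.99, and the 2 differences with liver, 0.80 ± 0.07 from lung and -0.75 ± 0.07 from kidney, were below the fold threshold.

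Genes that work with the members were read from 3 lists drawn from textbook membership. In the order below the lists hold 17, 18 and 32 genes, of which 15, 13 and 27 passed the filter and were tested. Among the integrin ligands, *Spp1*, *Npnt*, *Egflam*, *Madcam1* and *Postn* did not pass, so the counts do not cover them. Beside the counts of these lists, 31.0% of all genes were called higher in lung and 23.9% in liver, 20.8% higher in kidney and 15.6% in liver, and 25.5% higher in lung and 20.6% in kidney. The median log2 fold change of all genes was -0.06, 0 and 0.04 for these pairs. Of 15 tested basement membrane partners, 13 were called higher in lung and 1 in liver, 13 higher in kidney and 1 in liver, and 6 higher in lung than kidney and none in kidney (median log2 fold changes -2.67, -1.98 and 0.74). Between lung and kidney that is 6 of 15 called, beside 46.1% of all genes. The type IV collagens of the glomerular and alveolar membrane, *Col4a4* and *Col4a3*, were lower in liver than in kidney by -6.69 ± 0.09 and -6.46 ± 0.10. The exception was *Col18a1*, the precursor of endostatin, which was higher in liver (5.61 ± 0.08 against kidney, 5.22 ± 0.08 against lung). Of 13 tested integrin ligands outside the laminins, 11 were called higher in lung than liver and 2 lower, 6 higher in kidney than liver and 2 lower, and 12 higher in lung than kidney (medians -3.44, -0.63 and 2.30). The 2 higher in liver were the plasma proteins vitronectin and fibronectin, with *Vtn* at 10.71 ± 0.10 and *Fn1* at 4.33 ± 0.13 against kidney, and *Nov*, a matricellular protein, was higher in lung than kidney by 4.43 ± 0.17. Of 27 tested genes of the adhesion complex, 16 were called higher in lung than liver and none in liver, 5 higher in kidney than liver and 4 in liver, and 11 higher in lung than kidney and 2 in kidney (medians -1.28, -0.28 and 0.76). Between liver and kidney that is 9 of 27 called, beside 36.4% of all genes. *Fermt1*, the epithelial kindlin, was lower in liver than kidney (-5.14 ± 0.09) and lower in lung than kidney (-3.35 ± 0.08), whereas *Parvb* and *Lims1*, partners of integrin-linked kinase, were lower in liver than lung (-3.36 ± 0.10 and -2.97 ± 0.11).

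Variation among strains within a tissue was described by the biological coefficient of variation (BCV), the spread beyond counting error. *Itgb1* was the steadiest member in each tissue, at 0.135 in liver, 0.135 in lung and 0.147 in kidney, where 5.42%, 13.5% and 19.4% of all genes were lower and the median gene had 0.242, 0.212 and 0.216. Without CC016, CC020 and CC041 it had 0.138 in liver and 0.142 in kidney, and *Itga1* (0.136) and *Lamc1* (0.141) were lower there. In lung the highest were *Lama1* (0.717, higher than 97.5% of genes), *Itga2b* (0.499) and *Itgb2l* (0.476). *Lama1* in lung ran from 0.242 CPM in CC012 to 7.25 CPM in CC044, with 7.21 CPM in the next strain. In kidney they were *Itgax* (0.7, higher than 96.9%), *Itgb2* (0.544) and *Itgb2l* (0.540), and in liver *Itgb2* (0.655, higher than 93.8%), *Itgb7* (0.630) and *Itga10* (0.592). Without CC016, CC020 and CC041, whose livers or kidney were highest of their tissue in leukocyte or squamous markers, *Itgb2* in liver fell to 0.335, while *Itgax* in kidney was 0.587 and *Itgb7* in liver 0.522. Extremes gathered in a few libraries. CC016 held the highest liver value of 7 of the 22 members with a median of at least 1 CPM there. CC020 held the highest kidney value of 7 of 27, and CC015 the lowest lung value of 7 of 29. These libraries were picked after their values were seen. How often each was extreme over all genes was not tested, so the counts cannot be read as a trait of the members. The lung of CC015 also ranked second among lungs for the liver genes (572 CPM) and for the tubule genes (92.2 CPM).

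To ask whether a strain with a high level in one tissue was also high in another, levels were rank-normalised and correlated over the 47 strains for every gene, with 100000 permutations and q adjusted over all genes and pairs. A positive correlation was called for 3 of 22 members between liver and lung, 6 of 22 between liver and kidney and 7 of 26 between lung and kidney, beside 14.8%, 21.1% and 17.5% of all genes. No member was called negative. Besides those described next, the called members were *Lama5* between liver and lung, *Itga9*, *Itgb2*, *Itgb5* and *Itgb7* between liver and kidney, and *Itga4*, *Itga9*, *Lama4* and *Lamb1* between lung and kidney, with r from 0.361 to 0.504. The leukocyte marker sum moved with *Itgb2* in liver and kidney (r = 0.753 and 0.802, rho 0.777 and 0.780, permutation p = 1e-05 for each) and with *Itga4* in lung and kidney (r = 0.846 and 0.614, rho 0.815 and 0.553, permutation p = 1e-05 and 2e-05 for r, and 1e-05 and 5e-05 for rho). Its part in these correlations was not tested. *Itga10* and *Itgb2l* were called in all 3 pairs. For *Itga10*, r was 0.457 between liver and lung (rho 0.427, permutation p = 0.00112 and 0.00291, q = 0.0152), 0.520 between liver and kidney (rho 0.455, p = 0.00022 and 0.00143, q = 0.00477) and 0.387 between lung and kidney (rho 0.320, p = 0.00762 and 0.0296, q = 0.0569). With the 2 most distant strains dropped, r was 0.411, 0.406 and 0.337. On TPM as deposited the *Itga10* call was lost between liver and lung (r = 0.263, q = 0.358) and between lung and kidney (0.165, q = 0.61), and the latter was also lost with Spearman's rho (q = 0.143) and without CC036 and CC039 (0.326, q = 0.142). The call of *Itgb2l* between liver and lung was lost on TPM too. CC021 had the highest *Itga10* in liver (7.59 CPM) and kidney (3.14 CPM) and 3.86 CPM in lung.

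The strains of *Itgb2l* were split by their kidney level at 2 CPM, so r is given within each set and not over all 47. Whether they form separate clusters was not tested. In kidney 6 strains (CC011, CC017, CC023, CC027, CC028 and CC030) lay between 0.304 and 1.98 CPM and the other 41 between 3.58 and 12.5 CPM. The same 6 had 0.590 to 1.67 CPM in liver, where the 41 had a median of 4.53, and 0.301 to 2.30 CPM in lung, where the 41 had a median of 2.67. In liver and lung both sets overlapped, since the 41 reached down to 0 and 0.397 CPM. Among the 6, CC027 read 2.30 CPM in lung and the other 5 were at or below 0.701 CPM. Within the 41 strains, r was 0.311 between liver and lung (rho 0.310, permutation p = 0.0478 and 0.0488), 0.273 between liver and kidney (rho 0.266, p = 0.0841 and 0.0937) and 0.236 between lung and kidney (rho 0.268, p = 0.136 and 0.0898). Within the 6, r was -0.226, 0.237 and -0.161 for these pairs of tissues (rho -0.200, 0.257 and -0.143, permutation p = 0.677, 0.651 and 0.787 for r, and 0.715, 0.656 and 0.803 for rho). The low strains were set apart here from their kidney values, at 2 CPM, and were not compared with the rest by a test. Because that split narrows the kidney range within each set, the r and p that involve kidney depend in part on it. A set of 6 strains is too small for its r to decide anything.

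Apart from *Itgb2l*, the highest r was that of *Itga10* between liver and lung and between liver and kidney. Between lung and kidney it was *Itgb7*, with 0.519 (rho 0.479, permutation p = 0.00016 and 0.00082, q = 0.00381) and 0.553 without the 2 farthest strains. On TPM as deposited it was 0.255 (q = 0.379) and not called. The leukocyte marker sum moved with *Itgb7* in both tissues (r = 0.779 in lung and 0.598 in kidney, rho 0.769 and 0.530, permutation p = 1e-05 and 3e-05 for r, and 1e-05 and 0.00014 for rho), and its part was not tested. In all 20 relations with marker sums were computed, and these 2 had q of 3.33e-05 and 6.67e-05 over the 20. For *Itgb7* in liver, r with the leukocyte marker sum was 0.276 (rho 0.219, permutation p = 0.0616 and 0.139, q = 0.0948).

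Chains of one trimer or dimer were compared across strains within a tissue, for 76 pairs with a median of at least 1 CPM in both genes. In lung *Itga4* and *Itgb7*, the lymphocyte dimer, followed each other with r = 0.710 (rho 0.667, permutation p = 1e-05 for both, the smallest that 100000 permutations can give) and 0.606 without the 2 farthest strains. *Itgax* and *Itgb2* followed with 0.596 (rho 0.519, p = 2e-05 and 0.00019). Both pairs moved with the leukocyte marker sum in lung, with r of 0.846 for *Itga4*, 0.779 for *Itgb7*, 0.764 for *Itgb2* and 0.373 for *Itgax*, which was not tested further. *Lama2* and *Lamb1*, chains of muscle-type laminin, had r = 0.572 in lung (rho 0.552, p = 3e-05 and 2e-05) and 0.541 without the 2 farthest strains. Among the 10977 other genes, *Lama2* ranked first in correlation with *Lamb1*, and *Lamb1* ranked second in correlation with *Lama2*. The other 2 pairs ranked lower. *Itgb7* was at rank 61 for *Itga4* and *Itga4* at 43 for *Itgb7*, while *Itgb2* was at 7 for *Itgax* and *Itgax* at 111 for *Itgb2*. The lowest of the 29 lung pairs was *Itga11* and *Itgb1* (r = -0.189, rho -0.226, p = 0.203 and 0.127).

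In kidney the highest of 26 pairs were *Itgax* and *Itgb2* (r = 0.607, rho 0.585, permutation p = 1e-05 and 2e-05), *Lama5* and *Lamb2* of the glomerular laminin (0.565, rho 0.515, p = 5e-05 and 0.00027) and *Lama4* and *Lamc1* (0.529, rho 0.525, p = 0.0001 and 0.00018). The leukocyte marker sum in kidney moved with *Itgax* (r = 0.596, rho 0.542, permutation p = 2e-05 and 9e-05) and *Itgb2* (r = 0.802), and its part was not tested. Not every pair moved together. *Itga2b* and *Itgb3*, the platelet dimer, had r = -0.330 in kidney (rho -0.369, permutation p = 0.0233 and 0.0109, q = 0.0708 over the 76 pairs) and 0.456 in lung. With the platelet marker sum, r in lung was 0.664 for *Itga2b* and 0.567 for *Itgb3*. In kidney these values were -0.0796 and 0.0934, and the part of that sum was not tested. In liver the highest of 21 were *Lama5* and *Lamc1* (0.488, rho 0.442, p = 0.00048 and 0.00195), *Lama2* and *Lamb2* (0.453, rho 0.425, p = 0.00164 and 0.00318) and *Lama2* and *Lamc1* (0.426, rho 0.446, p = 0.00298 and 0.0019), and the lowest *Itgav* and *Itgb1* (-0.190, rho -0.151, p = 0.201 and 0.310). Adjusted over the 76 pairs by Benjamini-Hochberg, the 3 highest pairs of each tissue had q from 0.00038 to 0.0162, and the lowest had 0.309 in both lung and liver.

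**Figure D5:**
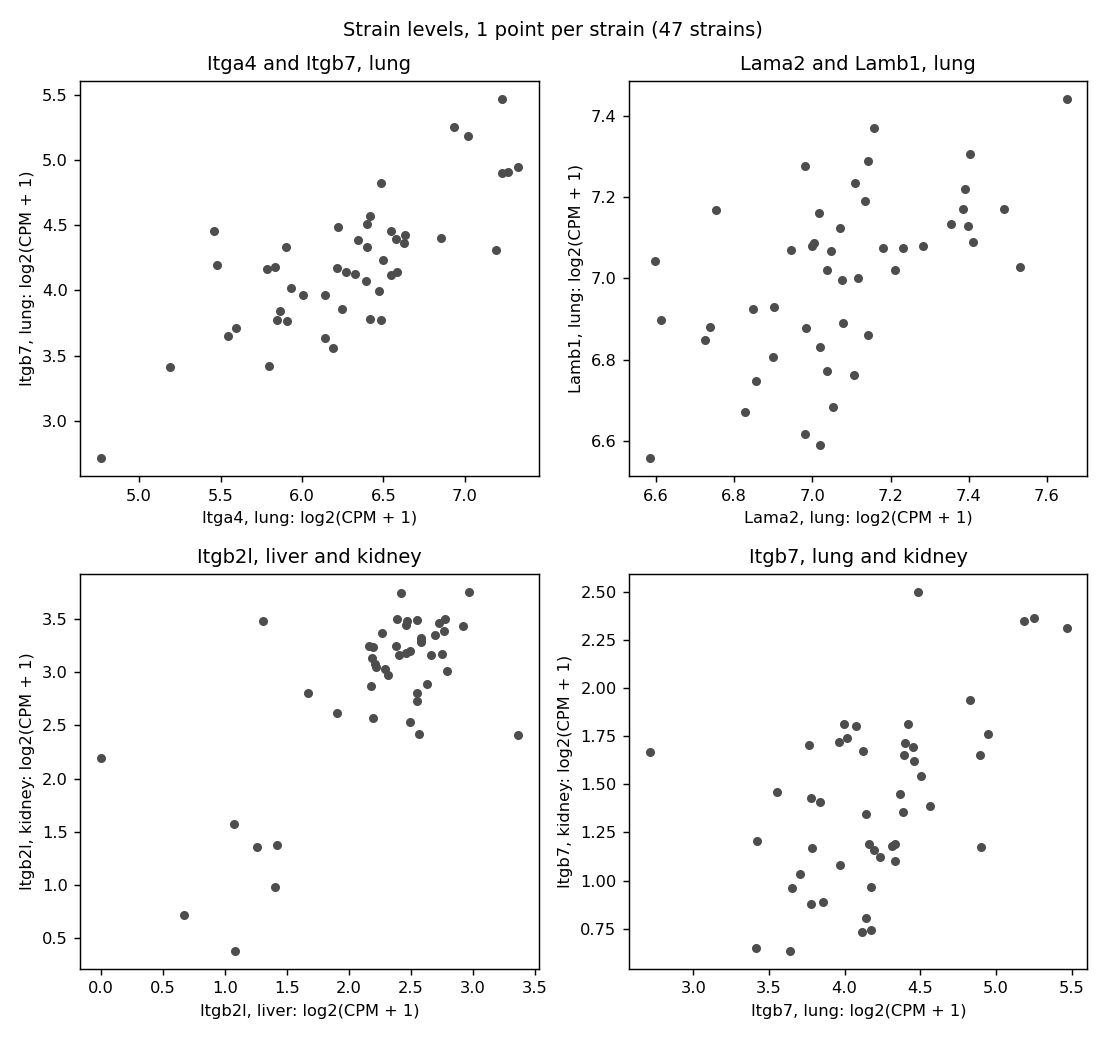
Strain levels as log2(CPM + 1), 1 point per strain, for *Itga4* and *Itgb7* in lung, *Lama2* and *Lamb1* in lung, *Itgb2l* in liver and kidney and *Itgb7* in lung and kidney. The *Itgb2l* panel shows 6 strains below 2 CPM in kidney, the cut used to set them apart.

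The sequences ahead of the starts of 5 genes that these correlations turn on are shown so that the pairs can be set side by side. Capitals mark CG dinucleotides, whose number separates CpG-rich from CpG-poor starts. RefSeq promoter entries matched 24 members with 27 starts, and the 250 bases before each start were found once, without mismatch, in the NCBIM37 (mm9) genome that the counts use. Bases inside the GENCODE gene are left off. The 2 lymphocyte subunits are *Itga4* at chr2:79095333-79095582 on the plus strand and *Itgb7* at chr15:102062367-102062616 on the minus strand, written 5′ to 3′ along the gene.
Itga4: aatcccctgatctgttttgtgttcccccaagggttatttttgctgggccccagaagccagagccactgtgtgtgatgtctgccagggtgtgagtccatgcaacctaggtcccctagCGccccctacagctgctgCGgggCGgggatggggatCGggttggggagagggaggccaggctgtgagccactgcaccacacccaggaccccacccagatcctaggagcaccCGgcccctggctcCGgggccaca
Itgb7: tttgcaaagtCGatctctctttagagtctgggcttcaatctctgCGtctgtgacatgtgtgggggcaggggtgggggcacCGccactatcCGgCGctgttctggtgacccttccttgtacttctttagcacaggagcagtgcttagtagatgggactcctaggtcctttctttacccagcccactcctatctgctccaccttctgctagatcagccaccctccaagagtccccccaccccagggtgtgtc
The laminin pair is *Lama2* at chr10:27336749-27336998 on the minus strand and *Lamb1* at chr12:31949908-31950098 on the plus strand.
Lama2: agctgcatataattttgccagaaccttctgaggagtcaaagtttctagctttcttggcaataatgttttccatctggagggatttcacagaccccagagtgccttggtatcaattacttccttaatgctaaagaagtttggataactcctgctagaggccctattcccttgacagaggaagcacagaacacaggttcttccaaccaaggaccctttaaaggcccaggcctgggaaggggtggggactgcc
Lamb1: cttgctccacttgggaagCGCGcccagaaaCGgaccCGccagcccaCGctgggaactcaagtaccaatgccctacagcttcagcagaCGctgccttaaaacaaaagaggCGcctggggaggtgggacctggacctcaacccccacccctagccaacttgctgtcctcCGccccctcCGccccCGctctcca
*Itgb2l*, whose strains were split by their kidney level, lies at chr16:96665227-96665471 on the minus strand.
Itgb2l: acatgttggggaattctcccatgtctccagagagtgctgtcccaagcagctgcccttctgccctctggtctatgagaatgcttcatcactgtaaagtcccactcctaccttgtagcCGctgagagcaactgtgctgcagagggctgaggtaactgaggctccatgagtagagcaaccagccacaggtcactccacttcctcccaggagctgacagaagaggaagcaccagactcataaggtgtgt

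Over 32851 promoters the median was 6 CG in 250 bases. *Lama2* had 0 and its partner *Lamb1* 14, of which the run printed above leaves off the last 59 bases. *Itga4* had 6 and *Itgb7* 5, both near the median, and *Itgb2l* had 1, where 7.87% of promoters had none. The widely expressed *Itgb1* and *Lama5* had 21 and 19, and *Itgav* and *Itgb8* had 18 and 12. The GC box GGGCGG, on either strand, was in 8 of the 24 members (*Itga3*, *Itga4*, *Itga5*, *Itgam*, *Itgb1*, *Itgb5*, *Lama5* and *Lamb1*) and in 32.7% of all promoters. AGGAAGT, a core bound by ETS factors, was in 7 (*Itga1*, *Itga11*, *Itgav*, *Itgb2l*, *Itgb6*, *Lama2* and *Lamb2*) and in 7.69% of all promoters. A member was counted if any of its starts matched, whereas the share of all promoters is per start, so the 2 are not like for like. *Itgb6* matched only at a start 48950 bases inside its gene, and the start of *Itga9* lies 105002 bases inside. Both motifs are matches of letters and were not tied to any factor or level.

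In the files' build, *Itgb8* spans chr12:120396495-120477275 on the minus strand and *Lama1* chr17:68046605-68171985 on the plus strand. *Lamc1* spans chr1:155066052-155179916 on the minus strand, and *Itgam*, *Itgax* and *Itgad* follow one another on chr7 between 135206154 and 135349015. *Itga4*, *Itga7*, *Itga8*, *Itgad*, *Itgav*, *Itgb4* and *Lamc3* overlap exons of a gene on the opposite strand, and whether the counting used strand is not given in the sources used here.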

How the data were processed

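RNA of liver, lung and kidney from 47 mice was sequenced as single-end reads after ribosomal depletion. Per the labels and the study's methods, the authors aligned reads with STAR 2.5.3a to strain-specific pseudo-genomes of mm9 and estimated gene abundance with RSEM from uniquely aligned reads. The deposited files, 1 per library, hold expected counts and TPM per gene. The authors' files had 25 expected counts that were not whole, 0 of them in the members, and these were rounded. Members and gene lists were chosen with earlier results of these data known.

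Counts were TMM-scaled with edgeR 4.0.16. Those genes that exceeded 1 CPM in 30% or more of all libraries were fitted with limma 3.58.1 (voom), with tissue as factor and strain as block, since the 3 libraries of a strain came from 1 mouse. Same-strain deviations from the tissue mean correlated with medians of 0.177, 0.213 and 0.216 for liver and lung, liver and kidney, and lung and kidney. Calls required q of at most 0.1 (Benjamini-Hochberg) with a log2 fold change of 1 or more in size. Strain correlations used Blom rank-normalised CPM of genes with a median of at least 1 CPM in both tissues and 100000 two-sided permutations. Total counts per library set the counting error, and the deepest and shallowest libraries are given above. The scripts were tested on simulated data with 200 changed genes. Genes were named by rule, namely members by role with a median of at least 1 CPM, the 3 largest calls of each pathway list, the 3 highest BCV per tissue and the extreme partner pairs. Alternatives with DESeq2 1.42.0, TPM and other scalings, filters and strains left out are described in the closing section. Proteins were not analysed here. Some items, among them values of 1 member, are not reported here.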

Additional observations from a re-analysis of the deposited data

How the results depend on the processing

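Of the calls made between tissues, 17 of 25 (liver and lung), 11 of 19 (liver and kidney) and 15 of 23 (lung and kidney) held in all 17 alternatives. Some of these could hardly lose a call. Dropping the fold threshold only adds calls, and the members had 0 counts that rounding changed. Of the fold changes recomputed for single genes, 1421 kept the call status of the main fit, 43 lost the call and 55 gained it. A further 6 changed sign with a call in either fit. A change of sign with a call in neither fit was counted among the 1421. With other scalings the median of all genes moved to -1.43, -0.95 and 0.46 with total counts and to -1.21, -0.72 and 0.47 with log2(TPM + 1). On log2(TPM + 1) less that median, 12 members were called between liver and kidney, and signs changed for *Itgae* (0.11 liver minus lung, 0.25 liver minus kidney), *Itgb6* (0.51 liver minus lung) and *Itga6* (0.11 liver minus kidney). *Itgb5* liver minus lung turned to -1.11 with total counts and -1.21 with log2(TPM + 0.1). The cause was not tested.

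The strain block follows from the pairing of 3 libraries per mouse. With no replicate block, 25, 18 and 23 members were called, and the call lost was that of *Itga4* between liver and kidney.

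Members with correlated strain levels numbered 0, 3 and 2 at q of at most 0.01 and 1, 3 and 1 with TPM as deposited, and 6 between liver and lung with log2 CPM. Counted as CPM, shares moved to 64.0% for *Itgb1* in kidney, 23.6% and 19.8% for *Lama4* in liver and lung, and 63.4% and 58.3% for *Lamc1* in lung and kidney. The BCV of *Itgb2* in liver was 0.335 without CC016, CC020 and CC041, an alternative chosen after seeing the data, which gave 25, 19 and 22 calls between tissues and 4, 5 and 7 correlations. Members at 3 reads or fewer, mostly livers, are limited by depth, and their fitted fold changes depend on the prior count.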

Other observations

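*Itgb5* was called in no pair of tissues. CC057 was lowest in liver (1.18 CPM) and lung (0.604 CPM) and had 1.53 CPM in kidney, where the lowest strain had 1.41 CPM. The highest lung, CC055, had 16.4 CPM where the next lung had 8.61 CPM, and the highest kidney, CC043, had 14.1 CPM where the next had 7.98 CPM. No lung had more than 155 reads of *Itgb5*, and on TPM as deposited the highest lung had 9.27 beside a median of 4.97. The height of the CC055 value thus depends on the scaling of that library. CC055 and CC043 were not the highest strains of the other tissues. These strains were chosen after their values were seen, and *Itgb5* lists more than 1 transcript.

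The 9 macrophage markers in the files summed to 1780 CPM in the lung of CC025, where the next lung had 758 CPM. Most of that sum rests on 1 gene, since *Chil3* ran from 0.831 to 1510 CPM among lungs and no other marker of the list exceeded 176 CPM there. The same lung held the highest *Itgax* (86.7 CPM) and the highest *Itgb3* (46.4 CPM) of the 47 lungs. It was also the highest lung for the 7 platelet markers, at 32.3 CPM where the next lung had 23.4 CPM. The part of either marker sum in these levels was not tested.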
